A study of Mus musculus with 52 samples.

Results

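The 10 genes described here build or block a transcription factor complex of blood stem cells, and their levels were measured in single cells of mouse bone marrow. They are the basic helix-loop-helix (bHLH) genes Tal1 and Lyl1, the LIM-only gene Lmo2, the LIM domain binding gene Ldb1, the E protein genes Tcf3, Tcf4 and Tcf12, and the Id genes Id1, Id2 and Id3. They were chosen by symbol, for what their proteins do, and make up 10 of the 28786 gene identifiers in the table. The 52 libraries were made by Smart-seq2, a plate method that copies full-length cDNA from 1 cell per well without molecular identifiers. Every library carried the cell type label primed HSCs (haematopoietic stem cells) and came from marrow of femora and tibiae of Cd4-cre;R26Tdtomato mice on the C57BL/6 strain, 6 to 8 weeks old, after lysis of red cells. In such mice Cd4 regulatory sequence drives Cre recombinase, which can turn on a red fluorescent reporter in cells that expressed Cre and in their progeny. The sources used here do not give the sort gate, how many animals were pooled or what "primed" means, and name no control, so the cells form 1 sample and no p-value was computed.

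An E protein binds DNA at the E box as a dimer, either with itself or with a tissue-restricted partner such as the Tal1 or Lyl1 protein. Lmo2 joins that dimer to Ldb1, which pairs with itself and can bring distant enhancers to promoters, and GATA factors join the same assembly. The complex is used both in stem and progenitor cells and in erythroid cells. Id proteins hold a helix-loop-helix without the DNA-binding basic region, so they pair with E proteins and keep them off DNA.

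Of the 52 cells, 49 were kept, with 85519 to 12446477 reads each (median 2187579). The levels of Cd34 and Klf1 were used to place the cells. Levels are given in CPM, the reads of a gene scaled to a common total per cell. Cells with at least 10 CPM of Cd34, a surface sialomucin of progenitors, are called Cd34-positive (14 cells, against 35 Cd34-low). Cells with at least 100 CPM of Klf1, an erythroid zinc finger factor, are called Klf1-high (36 cells, against 13 Klf1-low). The splits overlap, as 11 of the 14 Cd34-positive cells were Klf1-low and 33 of the 35 Cd34-low cells were Klf1-high. The other cells were cells 2, 21 and 47, positive for Cd34 and high in Klf1, and cells 9 and 34, low in both. The Cd34 limit fell in a gap, with 1.66 CPM in cell 34 just below it and 91.0 CPM in cell 2 just above. The Klf1 limit fell between 82.2 CPM in cell 16 and 141 CPM in cell 47. These are ranges of 1 gene's level and not cell types.

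Cells 9 and 34 stood apart from the rest. Cell 9 was the shallowest kept cell and held 3531 CPM of the immunoglobulin gene Igkc, against at most 171 CPM in any cell but these. Cell 34 held 39230 CPM of the lysozyme gene Lyz2, against at most 1408 CPM elsewhere. The label was set beside marker genes. For comparison, 24.4% of all identifiers were read in 50% or more of the cells. Of 10 HSC markers 2, Kit (48 of 49 cells) and Meis1 (33 cells), were read that widely, a share near that of all identifiers. Procr, Slamf1 and Ly6a had a read in 6, 8 and 8 cells. Of 10 erythroid markers 7 were read in 50% or more of the cells, Car1 in 49 and Klf1 in 46, while Hba-a1, Hbb-bt and Alas2 had a read in 20, 8 and 2 cells. Klf1-high cells were read more deeply (median 2993788 reads) than Klf1-low cells (752926 reads), and no read of Cd4 was found in any kept cell.

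Letters upstream of 3 members are shown, those of Tal1, Lyl1 and Ldb1, whose windows held no annotated exon. The windows are the 250 bases before the annotated start, on the gene's strand, from the RefSeq promoter table of build GRCm38.p6, in which 7 of the 10 members were matched. Where a gene has more than 1 window, as Tal1 (2) and Ldb1 (3) do, the one farthest upstream is shown. Capitals mark the E box CANNTG and the GATA motif GATAA, each searched on both strands (TTATC is GATAA on the other strand).
Tal1 window: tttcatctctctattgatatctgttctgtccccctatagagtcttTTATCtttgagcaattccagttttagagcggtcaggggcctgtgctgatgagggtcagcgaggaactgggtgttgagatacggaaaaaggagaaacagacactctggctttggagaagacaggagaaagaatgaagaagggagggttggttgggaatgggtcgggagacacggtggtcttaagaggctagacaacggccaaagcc
Lyl1 window: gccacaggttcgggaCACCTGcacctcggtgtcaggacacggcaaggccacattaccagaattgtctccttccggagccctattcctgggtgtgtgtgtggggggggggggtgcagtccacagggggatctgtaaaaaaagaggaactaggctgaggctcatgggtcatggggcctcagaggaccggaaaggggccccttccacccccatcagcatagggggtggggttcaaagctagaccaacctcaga
Ldb1 window: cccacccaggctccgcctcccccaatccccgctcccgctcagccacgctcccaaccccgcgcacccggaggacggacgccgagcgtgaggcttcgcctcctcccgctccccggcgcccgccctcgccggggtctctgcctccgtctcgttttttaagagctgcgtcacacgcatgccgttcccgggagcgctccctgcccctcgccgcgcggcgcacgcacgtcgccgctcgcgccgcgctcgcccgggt
The Tal1 window (chr4:115056176-115056425, plus strand) held 1 GATA match, 205 bases before the start, and 0 E boxes. The Lyl1 window (chr8:84701207-84701456, plus strand) held 1 E box, CACCTG, 235 bases before the start, and 0 GATA matches. The Ldb1 window (chr19:46045312-46045561, minus strand) held neither set of letters. Of the windows not shown, that of Ldb1 at chr19:46037071-46037320 held 1 E box, CAACTG, 247 bases before its start, and 2 GATA matches, 240 and 200 bases before it, and the others of Tal1 and Ldb1 held neither. The windows of Tcf3, Tcf12, Id2 and Id3 held annotated exons, and their letters are not shown. An E box lay in windows of Tcf3, Tcf12 and Id2. Among 32851 windows of the same length, 66.2% held an E box and 22.6% a GATA match, so a match is common and is only a description.

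The Id genes were close to absent. Id1 (chr2:152736251-152737410, plus strand, 1 exon) had 0 reads in all 52 cells, and 0 of 49 kept cells allows up to 6.12% of cells to hold a read by the limit of 3 counts (upper end of the exact 95% interval 7.25%). Id2 (chr12:25093799-25097140, minus strand) had 32 reads in 3 kept cells, of which 26 were in cell 8 (11.05 CPM), 4 in cell 46 and 2 in cell 20. Id3 (chr4:136143497-136145755, plus strand) had 1 read, in cell 51. In the other 45 kept cells, the most deeply read among them, no Id read was found. Genes this sparse are common in the table, where 61.2% of all identifiers had a read in under 10% of kept cells. Whether the transcript set could receive reads of Id1 was not tested.

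E protein transcripts were found in almost every cell, and most of them came from Tcf3. Tcf3 (chr10:80409514-80433647, minus strand), which codes for E12 and E47 by splicing, was read in 47 of 49 cells, in 45 of them at 10 CPM or more (91.8%, exact Clopper-Pearson 95% interval 80.4 to 97.7, which covers counting error only, as does every interval here). Its level ran from 0 to 574 CPM with a median of 267 CPM. Tcf4 (chr18:69343356-69689079, plus strand), the E protein best known in plasmacytoid dendritic cells, reached 10 CPM in 34 cells, with a median of 34.96 CPM and a highest value of 409 CPM in cell 29. Tcf12 (chr9:71842688-72111871, minus strand), also called HEB, reached 10 CPM in 30 cells, with a median of 44.2 CPM and a highest value of 196 CPM. More than 1 E protein genes at 10 CPM was the usual state, with all 3 in 18 cells, 2 in 26 cells, 1 in 3 cells and none in cells 9 and 34.

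To compare genes with each other, reads were divided by the length of the gene's exon union and scaled to a common total per cell, a length-scaled level. On that scale Tcf3 was the leading E protein gene in 45 of the 48 cells with any E protein read, Tcf12 in 2 and Tcf4 in 1. Tcf3 made up a median of 91.5% of the E protein sum. With the longest transcript as the length, Tcf3 led in 44 cells with a median share of 84.8%, and with no length correction its median share was 67.7%. The exceptions were cell 31, with 0.427 CPM of Tcf3 and 102 CPM of Tcf12, cell 3, with 13.8 and 135 CPM, and cell 16, with 0 CPM of Tcf3 and 18.8 CPM of Tcf4. Cells 16 and 31 are Cd34-positive and Klf1-low, and cell 3 is Klf1-high.

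The balance of E protein to Id transcripts therefore sat far on the E protein side. The 49 cells held 52031 reads of E protein genes and 33 reads of Id genes. Per cell, the log2 ratio of the length-scaled sums, with 1 added to each, had a median of 7.57 (lowest 0 in cell 9, highest 8.61). Because the Id sum was 0 in 45 cells, the ratio mostly follows the E protein sum over the added 1. That sum had a median of 217 in Klf1-high cells and 122 in Klf1-low cells, and of 165 in Cd34-positive and 213 in Cd34-low cells. Cells 9 and 34 held sums of 0 and 2.25, and the 11 Klf1-low cells without them had a median of 185. The ranges overlapped, from 28.7 to 311 in Klf1-high cells and from 0 to 390 in Klf1-low cells. In cells 8 and 46, with the most Id2 reads, the ratio stayed above 0, at 4.15 and 4.004.

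**Figure D1:**
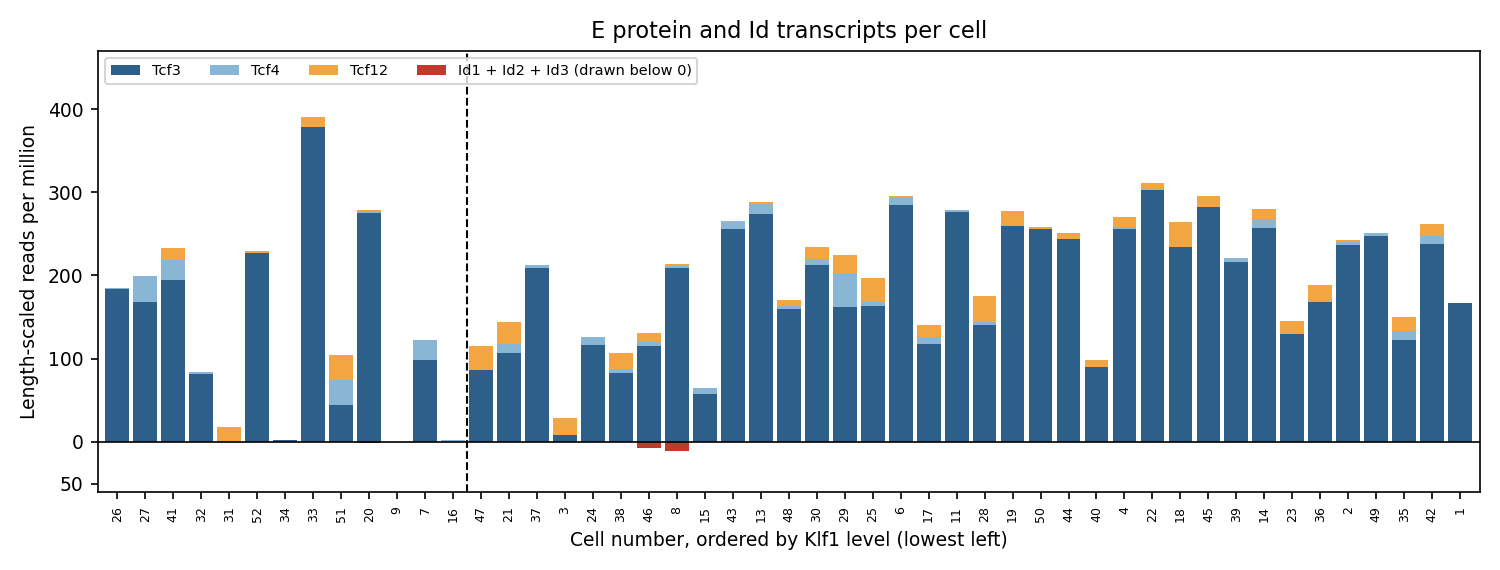
E protein and Id transcripts in 49 cells. Stacked bars above 0 give the length-scaled level of Tcf3, Tcf4 and Tcf12 and bars below 0 that of the Id genes, in reads per kilobase scaled to a common total per cell, with cells ordered by Klf1 level and a dashed line between the 13 Klf1-low and the 36 Klf1-high cells. Tcf3 fills most bars, and Id transcripts are visible in cells 8 and 46.

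Tcf3 and Tcf12 both had lower medians in the cells positive for Cd34 and low in Klf1. Tcf3 lay between 13.8 and 469 CPM in the 33 cells that were Cd34-low and Klf1-high (median 334 CPM) and between 0 and 574 CPM in the 11 that were Cd34-positive and Klf1-low (median 231 CPM). Tcf12 had a median of 68.3 CPM in the former, with 23 of 33 cells at 10 CPM, and of 2.86 CPM in the latter, with 5 of 11 cells. The ranges of both genes overlapped between these cells. Among the 11 cells Tcf12 correlated with total reads at 0.73, and after thinning every cell at random to 85519 reads it had a read in 25 of 33 and 4 of 11 cells. The part of depth in the Tcf12 difference was not tested beyond this. Tcf4 had medians of 39.7 and 22.97 CPM, and 4 of the 11 Cd34-positive Klf1-low cells (7, 27, 41 and 51) held between 219 and 292 CPM of it.

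Tal1 and Lyl1 were both widespread. Tal1 (chr4:115056426-115071755, plus strand) was read in 48 of 49 cells, in 43 at 10 CPM or more (87.8%, interval 75.2 to 95.4). Its level ran from 0 to 434 CPM, with a median of 84.5 CPM. Lyl1 (chr8:84701457-84704715, plus strand), the close relative of Tal1, was read in 47 cells, likewise in 43 at 10 CPM or more, with a median of 138 CPM and a highest value of 1661 CPM in cell 34. Lyl1 lies within the span of Nfix on the opposite strand, but their exons share only 4 bases (0.222% of the Lyl1 exon union). No cell lacked both genes at 10 CPM.

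Which of the pair prevailed differed from cell to cell. Both reached 10 CPM in 37 cells, Tal1 alone in 6 and Lyl1 alone in 6. The cells with Tal1 alone included cell 20, with 330 CPM of Tal1 and 0.572 CPM of Lyl1, and cell 25, with 82.3 and 0.684 CPM. The cells with Lyl1 alone included cell 33, with 1.28 CPM of Tal1 and 715 CPM of Lyl1, cell 16, with 1.71 and 532 CPM, and cell 42, with 8.56 and 472 CPM. These opposite cells occurred on both sides of the Klf1 limit. Lyl1 alone was found in 5 of 13 Klf1-low and 1 of 36 Klf1-high cells, and 2 of those 5 were cells 9 and 34. Tal1 alone was found in 2 Klf1-low and 4 Klf1-high cells.

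Per length, Lyl1 was above Tal1 in 41 of 49 cells. The log2 ratio of Tal1 to Lyl1 on length-scaled values, with 1 added to each, had a median of -2.15, from -10.19 in cell 34 to 6.76 in cell 20. Its median was -1.79 in Klf1-high and -2.33 in Klf1-low cells, and -2.33 in Cd34-positive and -1.99 in Cd34-low cells. These medians differ by far less than the SD of 3.51 over cells. That SD is the spread of single cells and not the error of a median. Without length correction the median was -0.88. Across the 49 cells the Spearman correlation of Tal1 with Lyl1 was -0.09, so high Tal1 did not go with high or with low Lyl1. The log2 ratio of the summed Tal1 and Lyl1 levels to the E protein sum ran from -2.61 to 9.43, with 18 cells above 1 and 9 below -1. Its median was 0.51 over all kept cells, 1.31 in Cd34-positive and 0.34 in Cd34-low cells. The sign of that overall median depends on the length used, as it was -0.51 without length correction.

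**Figure D2:**
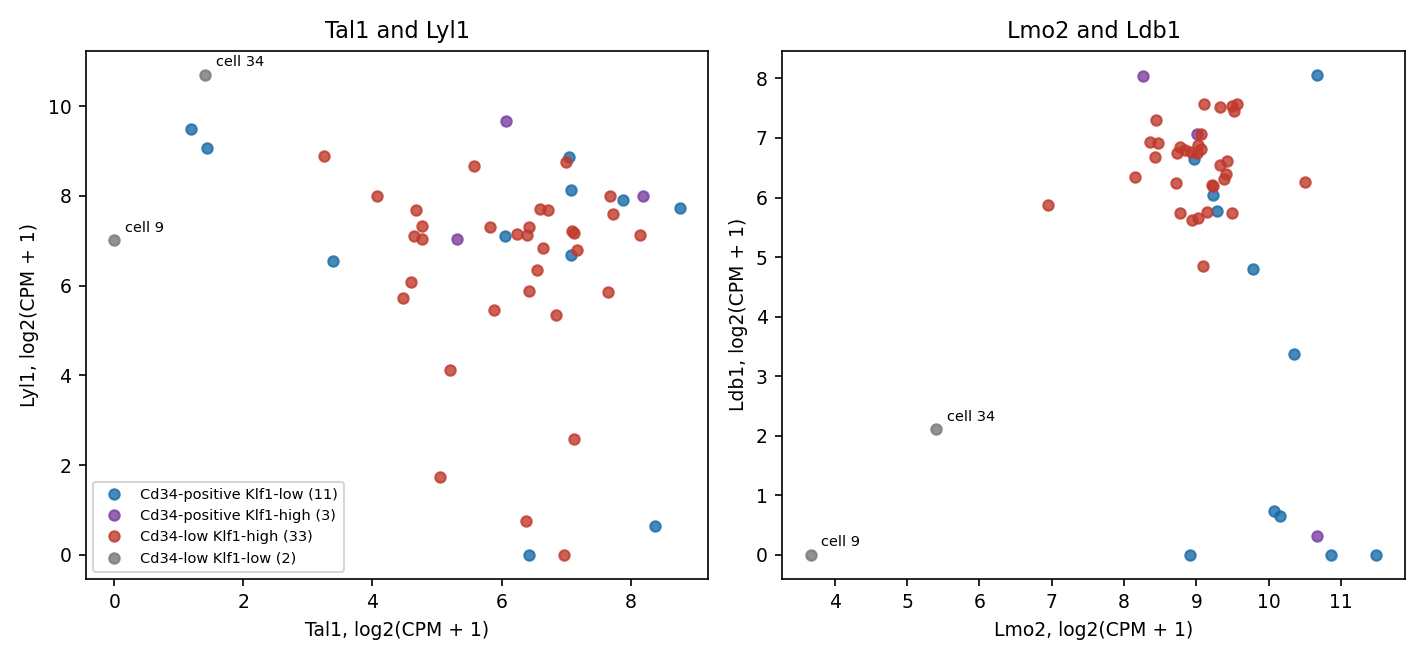
Tal1 against Lyl1 (left) and Lmo2 against Ldb1 (right) in 49 cells, as log2(CPM + 1) on both axes. Each point is 1 cell, coloured by its range of Cd34 and Klf1. Tal1 and Lyl1 show no common trend, and the low Ldb1 values belong to Cd34-positive cells and to cells 9 and 34.

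Lmo2 was the only member found at 10 CPM in every kept cell, as were 2.24% of the 9874 genes averaging 5 CPM or more. Lmo2 (chr2:103957986-103981878, plus strand) ran from 11.7 CPM in cell 9 to 2878 CPM in cell 33, with a median of 545 CPM. In the 11 cells positive for Cd34 and low in Klf1 its level ran from 479 to 2878 CPM (median 1077 CPM). In the 33 cells low in Cd34 and high in Klf1 it ran from 122 to 1448 CPM (median 535 CPM). Cells 9 and 34 held 11.7 and 41.4 CPM, below every other kept cell. The groups overlapped, with the highest levels among Cd34-positive cells.

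Ldb1 showed the reverse order. Ldb1 (chr19:46031570-46045214, minus strand) was read in 45 cells, in 40 at 10 CPM or more (81.6%, interval 68.0 to 91.2). In the 33 cells low in Cd34 and high in Klf1 its level ran from 27.8 to 190 CPM, with a median of 101 CPM, and all 33 reached 10 CPM. In the 11 cells positive for Cd34 and low in Klf1 it ran from 0 to 266 CPM, with a median of 9.30 CPM, and 5 of 11 reached 10 CPM. Of these 11, 3 (cells 31, 33 and 41) had 0 reads of Ldb1, with 780369 to 2343619 reads in all. Of the 3 cells positive for Cd34 and high in Klf1, cell 21 held 0.251 CPM, cell 2 133 CPM and cell 47 262 CPM. The pattern of 10 CPM in all 33 of the former and in at most 50% of the latter cells, a rule set after the values were seen, was met by 45 of 9874 genes (0.456%).

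The 11 cells were read less deeply (median 780369 reads) than the 33 (median 2887968 reads). With every cell thinned to 85519 reads, Ldb1 had a read in 33 of 33 cells low in Cd34 and high in Klf1 and in 6 of 11 cells positive for Cd34 and low in Klf1. Among those 11 cells Ldb1 correlated with total reads at -0.63. The part of depth was not tested beyond the thinning, which draws from PCR copies. The Ldb1 exon union shares 177 bases (3.84%) with the antisense gene Pprc1, whose mean level was 97.7 CPM, and the sources used here do not say whether counting used strand. The summed HSC markers had a median of 2270 CPM (range 2086 to 2853) in the 11 cells and 470 CPM (range 140 to 2843) in the 33. The summed megakaryocyte markers had medians of 1060 and 4.39 CPM, and the summed erythroid markers 1562 and 13877 CPM. Their part in the Lmo2 and Ldb1 levels was not tested.

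Lmo2 exceeded Ldb1 in all 49 cells on length-scaled values, by a median log2 ratio of 3.85 with 1 added to each. The ratio had a median of 7.02 in Cd34-positive cells (range 1.31 to 11.79) and of 3.32 in Cd34-low cells (range 2.13 to 5.31). The Cd34-positive cells thus covered the whole range of the others and extended beyond it. In cells 20, 21, 31, 32, 33 and 41, all Cd34-positive, length-scaled Ldb1 was at most 0.396. Their ratios therefore mostly follow Lmo2 over the added 1. The difference between the Cd34-positive and Cd34-low medians, 3.71, ran from 1.24 to 5.39 under the alternatives given below.

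**Figure D3:**
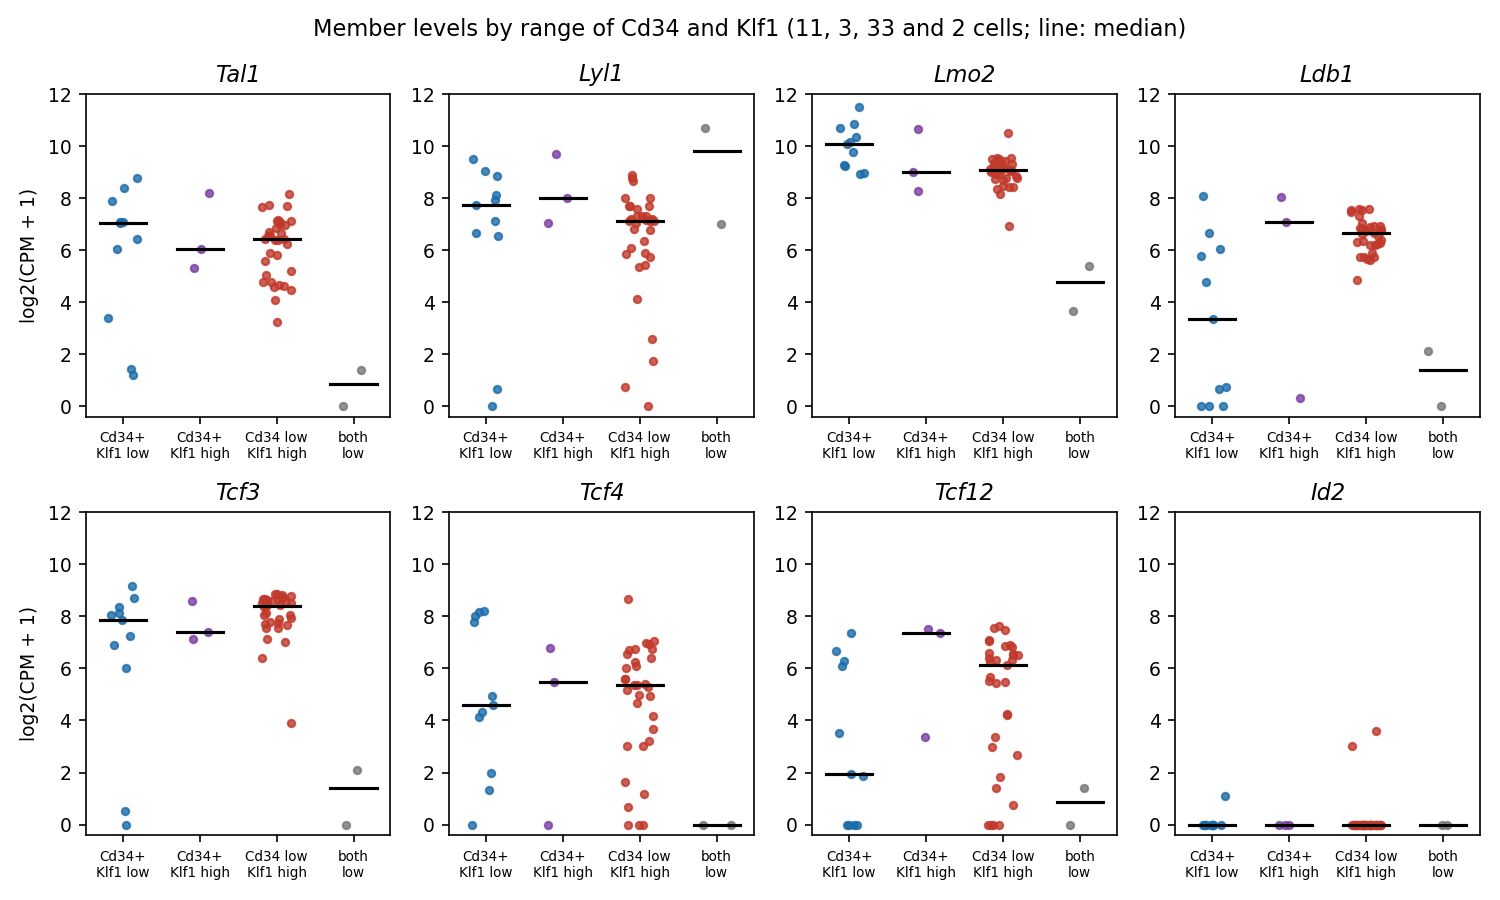
Levels of 8 members by range of Cd34 and Klf1, as log2(CPM + 1). Points are cells (11 positive for Cd34 and low in Klf1, 3 positive and high, 33 low and high, 2 low in both) and lines are medians. Ldb1 lies between 27.8 and 190 CPM in all 33 cells of the third range and spreads down to 0 in the first.

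The parts of the complex that the members supply are Tal1 or Lyl1, Lmo2, Ldb1 and an E protein gene. GATA factors were not counted here. All of these reached 10 CPM in 40 of 49 cells (81.6%, interval 68.0 to 91.2). The share was 33 of 33 among cells low in Cd34 and high in Klf1 and 5 of 11 (45.5%, interval 16.7 to 76.6) among cells positive for Cd34 and low in Klf1. In all 9 cells without the full set Ldb1 was below 10 CPM, and in cells 9 and 34 the E protein genes were too. After thinning to 85519 reads, a read of each of these parts was found in 33 of 33 and 6 of 11 cells.

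Mean levels were then compared across each split, with a member called higher or lower past a 2-fold ratio of mean CPM (1 CPM added), a description with no test. Between Cd34-positive and Cd34-low cells, 22.8% of 9874 genes were higher and 18.6% lower, so 41.4% passed. Of the 7 members averaging 5 CPM or more, 1 was higher and 0 were lower, a smaller share than among all genes. Lmo2 stood at 1102 ± 712 CPM (SD over cells) in Cd34-positive and 519 ± 244 CPM in Cd34-low cells, a log2 ratio of 1.09. That call rested on cell 33, without which the ratio was 0.90. With Cd34 split at 1 read the Lmo2 ratio was 0.89, and Lyl1 passed 2-fold in its place at 1.10. At the limit of 10 CPM the other members lay between -0.56 for Ldb1 and 0.75 for Tcf4. The Tcf4 ratio was 1.05 without cell 29.

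Between Klf1-high and Klf1-low cells, 24.8% of genes were higher and 23.1% lower, together 47.9%. Of the 7 members 2 were higher and 1 was lower, together a share near that background. Ldb1 stood at 105 ± 53.6 CPM in Klf1-high and 40.3 ± 74.97 CPM in Klf1-low cells, a log2 ratio of 1.36 that stayed between 1.25 and 2.24 when any 1 cell was left out. It missed 2-fold with the Klf1 limit at 200 CPM (0.97) and at the median (0.86). Tcf12 stood at 70.0 ± 62.3 and 32.9 ± 53.1 CPM, a ratio of 1.07 that missed 2-fold without any 1 of 10 cells, at the lowest 0.96 without cell 7, and that was 0.46 after thinning. Lyl1 stood at 165 ± 161 and 351 ± 448 CPM, a ratio of -1.09 that became -0.55 without cell 34 and also missed 2-fold without cell 33. Without cells 9 and 34 together Ldb1 was at 1.14, Tcf12 at 0.84 and Lyl1 at -0.61, while Lmo2 passed 2-fold at -1.05. Tal1, Tcf3 and Tcf4 were within 2-fold at -0.34, 0.66 and -0.61. Both splits draw on the same cells, so their values are given side by side and not compared.

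**Figure D4:**
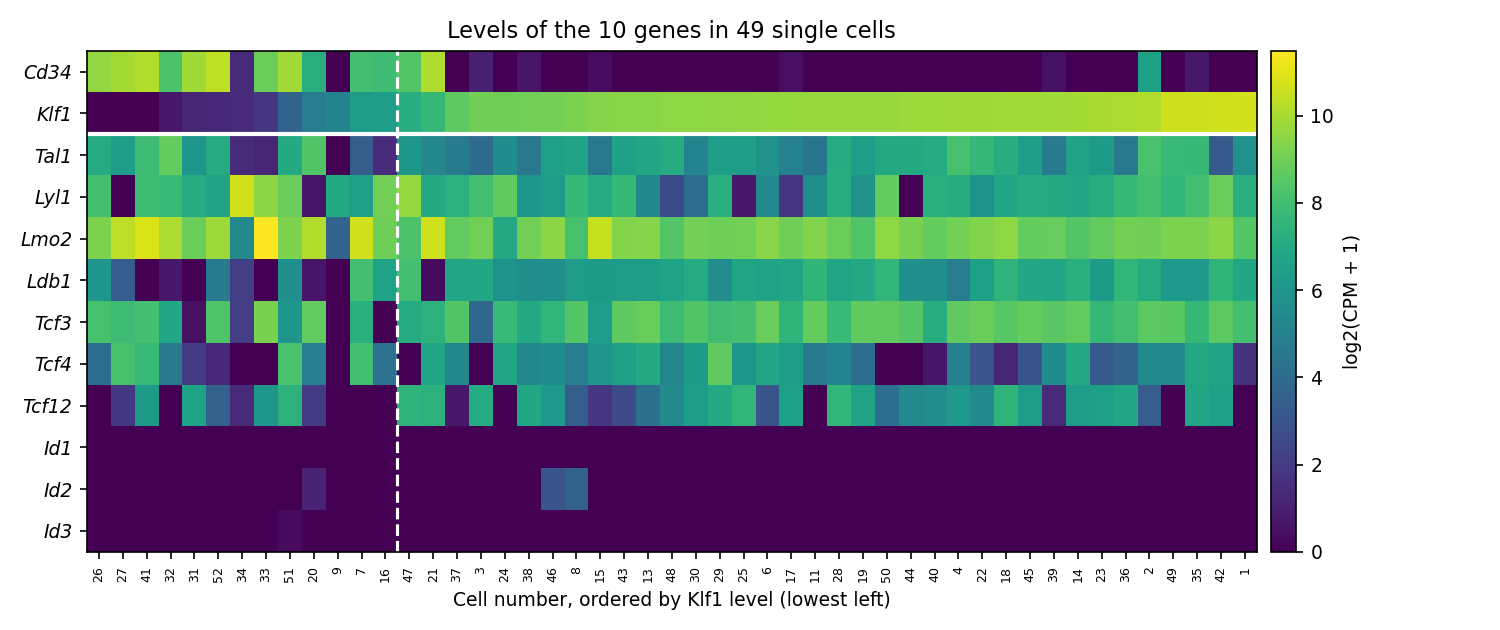
Levels of Cd34, Klf1 and the 10 members in 49 cells as log2(CPM + 1), with cells in columns ordered by Klf1 level and a dashed line at 100 CPM of Klf1. Lmo2 is present throughout. Ldb1 is patchy left of the line and above 10 CPM to its right except in cell 21, at 0.251 CPM. The Id rows are empty but for 4 cells.

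Ordered by median length-scaled level, Lmo2 came first at 638, followed by Lyl1 at 205, Tcf3 at 169, Tal1 at 49.9, Ldb1 at 44.9, Tcf12 at 8.12, Tcf4 at 3.27 and the Id genes at 0. Lmo2 exceeded Lyl1 in 44 of 49 cells, Tcf3 exceeded Tal1 in 43 and Ldb1 exceeded Tcf12 in 43. Neighbours in the order that exchanged places often were Lyl1 and Tcf3 (Lyl1 above in 30 cells), Tal1 and Ldb1 (25 above, 23 below) and Tcf12 and Tcf4 (27 above, 21 below). With the longest transcript as the length, Tcf3 came before Lyl1 and Ldb1 before Tal1, so those places depend on the length.

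The members varied largely apart from each other. Over the 49 cells the 21 Spearman correlations among the 7 detected members had a median of 0.003 and ran from -0.23 for Lyl1 with Tcf3 to 0.29 for Tal1 with Tcf3. The cells come from 1 labelled sample and differ in depth, so these are descriptions. With Klf1, the correlation was 0.56 for Ldb1 and 0.42 for Tcf3, beside 0.52 between Klf1 and total reads and 0.30 between Ldb1 and total reads. Within the 36 Klf1-high cells Ldb1 and Klf1 correlated at 0.26. With Cd34, the correlation was 0.38 for Lmo2, -0.40 for Ldb1 and -0.40 for Tcf3. Lmo2 and Tcf3 correlated at 0.74 over the 13 Klf1-low cells, at 0.61 over 11 of them without cells 9 and 34, and at 0.17 over the Klf1-high cells. The pair was picked as the highest of 21 in the 13 and in the 11 cells. Over the 11 cells the pairs had a median of -0.009, and the lowest was -0.60 for Ldb1 with Tcf12.

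The genes whose levels followed each member most closely were picked as the 3 highest Spearman correlations over 49 cells among 9157 genes. For Lmo2 these were Itga2b, the platelet integrin subunit, Hlf, a stem cell transcription factor, and Sirt3, a mitochondrial deacetylase, each at 0.57. For Ldb1 they were Sap18b, Pon2 and Stradb, each at 0.60, and the split of reads between Sap18b and its close relative Sap18 is uncertain. For Tcf3 they were Pprc1 at 0.60, a mitochondrial coactivator gene, with Ttc4 and Isca2 at 0.58. For Tal1 they were Coasy at 0.57, with Ywhag and Emc7 at 0.51. For Lyl1 they were Gab2 at 0.55, an adaptor protein, Sgip1 at 0.54 and Fmo1 at 0.53. Tcf4 was followed by Clasrp at 0.55, Tradd and Srd5a1 at 0.54, and Tcf12 by Ndufa9 at 0.55, Sugt1 at 0.52 and Anxa7 at 0.50. For comparison, the 99th percentile over all ranked genes lay between 0.32 for Lyl1 and 0.45 for Ldb1 and Tcf3, and each gene named here was chosen as the highest.

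Of 22 partner genes of the complex, 17 were read in 50% or more of the cells, as were 24.4% of all identifiers. Gata1, the erythroid GATA factor, averaged 151 ± 248 CPM in Cd34-positive and 511 ± 260 CPM in Cd34-low cells. Gata2, the GATA factor of stem cells, averaged 533 ± 262 and 302 ± 439 CPM, and Gfi1b, a repressor of erythroid and megakaryocytic cells, 184 ± 278 and 386 ± 310 CPM. The deacetylase gene Hdac1 averaged 332 ± 204 and 310 ± 188 CPM. Of the 19 partners averaging 5 CPM or more, 4 were higher in Cd34-positive cells (Erg, Fli1, Lmo4 and Runx1) and 3 lower (Gata1, Gfi1b and Zfpm1), with a median log2 ratio of 0.33 against 0.05 over all genes. Their 7 of 19 past 2-fold is a share near the background of 41.4%. Ldb2, the relative of Ldb1, and Lmo3 had 0 reads, and Lmo1 had a read in 1 cell.

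Of 10 stem cell targets of the complex, 7 were higher in Cd34-positive cells and 0 lower, where 22.8% of all genes were higher, with a median log2 ratio of 2.50 against 0.05 over all genes. Kit averaged 670 ± 308 and 507 ± 374 CPM in Cd34-positive and Cd34-low cells, Nfe2 595 ± 476 and 223 ± 235 CPM, and Hhex 188 ± 181 and 161 ± 164 CPM. Of 8 erythroid targets averaging 5 CPM or more, 7 were higher in Klf1-high cells and 1 lower, with a median of 2.34 against 0.08 over all genes, where 24.8% of all genes were higher and 23.1% lower. Klf1 itself sets that split, and without it the count was 6 of 7 higher. Epor, the erythropoietin receptor, averaged 193 ± 122 CPM in Klf1-high and 32.5 ± 64.6 CPM in Klf1-low cells, and Tfrc, the transferrin receptor, 153 ± 111 and 39.2 ± 75.2 CPM.

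Of 10 lymphoid genes that E proteins activate, 5 had 0 reads (Ptcra, Rag1, Rag2, Il7r and Gfi1), a share near the 47.4% of all identifiers at 0 in every kept cell, and 1 was read in 50% or more of the cells. That gene, the B cell factor Ebf1, had a read in 40 cells but a median of 1.93 CPM and 10 CPM in 5 cells. Cd79a had a read in 4 cells, with its highest value, 2304 CPM, in cell 9, which held 0 reads of Tcf3, Tcf4 and Tcf12. Notch1 averaged 85.7 ± 135 CPM in Cd34-positive and 0.900 ± 3.57 CPM in Cd34-low cells.

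Of 8 genes of the BMP and SMAD pathway, which can switch on Id genes, 0 were read in 50% or more of the cells. The receptor genes Acvr1, Bmpr1a and Bmpr2 had a read in 0, 1 and 3 cells. Smad5 had a read in 22 cells, averaging 88.6 ± 169 CPM in Cd34-positive and 18.2 ± 42.5 CPM in Cd34-low cells, and Smad1 in 12 cells, averaging 103 ± 160 and 6.05 ± 22.7 CPM. Smad4 had a read in 18 cells and Smad7 in 16. Among the 5 averaging 5 CPM or more, 4 were higher and 1 lower in Cd34-positive cells, beside 22.8% and 18.6% of all genes. Smad6 passed that limit at 5.17 CPM with a read in 4 cells. It averaged 15.6 CPM in Cd34-positive and 0.982 CPM in Cd34-low cells, so it passed only through the Cd34-positive cells. Smad7 averaged 19.9 ± 64.1 and 4.75 ± 10.3 CPM. The count is therefore only a description.

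Other genes of the bHLH and Id families gave no second source of Id transcripts, as Id4 had 0 reads. Tal2, Nhlh1 and Hey1 also had 0 reads, and Hes1 had a read in 3 cells. Myc was found in 48 cells at 664 ± 422 CPM, and its partner Max in 42 cells at 74.4 ± 65.1 CPM. Bhlhe41 was found in every kept cell, with a median of 4683 CPM and 142986 CPM in cell 9. Such a level takes a large part of a cell's total, and a total without Bhlhe41, the gene entry ENSMUSG00000082697 and mitochondrial genes changed none of the 2-fold calls of the members.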

How the data were processed

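The deposited table holds expected counts, the authors' estimated reads of each gene, for 28786 identifiers in 52 cells, with 4.23% of values not whole. Trimming used Trim Galore 0.5.0 and quantification Salmon 0.03.1 on GRCm38, per the submitters' processing notes, with the transcript set and strand setting not given in the sources used here. Salmon assigns reads shared by similar genes by a model, so such levels are uncertain.

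Counts were rounded to whole reads. Cells 5, 10 and 12 were left out by limits of 50000 reads, 1000 genes with a read and 20% mitochondrial reads. Symbols, lengths and coordinates came from GENCODE M21 (GRCm38), which named 96.3% of identifiers. All cells carry 1 label and are not replicates, so means, medians, SDs, shares and Spearman correlations are descriptions. No doublet caller was run on 52 wells. Computations used Python 3.11.15 with pandas 2.3.3 and scipy 1.17.1, and edgeR 4.0.16 gave TMM factors as an alternative total. The code for the ratios was checked on simulated counts with known changes. Reads here are PCR copies with no molecular identifier, so they do not count molecules.

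The members and gene lists were chosen with earlier results of these data known. Named genes were the members, Cd34, Klf1, up to 4 genes of a list by mean CPM, and the 3 closest genes to each detected member. Other genes named where a count was small (list genes past 2-fold or without reads, marker genes, Igkc and Lyz2), the set of complex parts and the Ldb1 rule over all genes were chosen after their values were seen.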

Additional observations from a re-analysis of the deposited data

Results flagged for a closer look

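Member transcripts were also found in 2 of the 3 cells that the filters left out and that enter no comparison. Cell 5, with 307220 reads, held 4 reads of Tal1, 4 of Lyl1, 120 of Lmo2 (391 CPM), 81 of Ldb1 (264 CPM), 19 of Tcf3 (61.8 CPM) and 23 of Tcf12 (74.9 CPM). Cell 12, with 32439 reads, held 17 reads of Lmo2 (524.1 CPM), 5 of Ldb1 (154 CPM) and 7 of Tcf3 (216 CPM). Each exceeds the 3 counts that a count of 0 allows. No Id1 read was found in either cell.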

How the results depend on the processing

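Of 62 results recomputed under 21 alternatives, 1251 of 1302 values stayed within set limits and 51 moved. The limits were a factor of 1.5 for counts and ratios and the exact interval for shares. For balances and correlations the limit was the SD over cells or pairs. Many alternatives cannot change a given result, as gene length does not enter a ratio of mean CPM. The SD limits are wide, so some changes of sign counted as within them. These totals are therefore no measure of how firm the results are. The count of 7 members read in at least 50% of cells was 7 under all of them. No ratio whose main value was past 2-fold changed sign. The sign changed in 24 values of 10 results, whose main values were at most 0.61 in size. By Klf1 level Tal1 went from -0.34 to 1.06 with means of log2 values and 0.26 with Klf1 split at the median, and Tcf4 from -0.61 to 0.51 with means of log2 values and 0.11 after thinning. The difference in the median Tal1 to Lyl1 ratio went from 0.54 to -0.26 by Klf1 and from -0.34 to 0.26 by Cd34 under the stricter filter given below, and the median ratio of Tal1 and Lyl1 to E proteins from 0.51 to -0.08 with the longest transcript and -0.51 without length correction. The other changes were in correlations near 0. At 10 CPM the share of cells was 87.8% for Tal1, 69.4% for Tcf4 and 61.2% for Tcf12. With edgeR's TMM factors 0 members were higher in Cd34-positive cells (Lmo2 at 0.98), and 1 was higher in Klf1-high cells. TMM factors moved the median log2 ratio of all genes by Klf1 level from 0.08 to 0.18. Splitting Cd34 at 1 read gave 21 positive cells, cell 34 among them, and 28 others. The count of higher members was again 1, but the member changed, with Lmo2 at 0.89 and Lyl1 at 1.10. With cells of at least 500000 reads and 4000 genes, and with means of log2 values, 1 member (Ldb1) was lower in Cd34-positive cells. By Klf1 level the count of higher members was 1 under that stricter filter, without cells 9, 13, 23 and 34, after thinning, with a pseudocount of 5, with Klf1 split at 50 CPM and without cells 9 and 34. It was 0 with Klf1 split at 200 CPM or at the median, and 4 with means of log2 values (Tal1 at 1.06, Ldb1 at 3.51, Tcf3 at 2.40 and Tcf12 at 2.20), where the median of all genes was 1.18 and 0 members were lower. The median E protein to Id ratio was 10.88 with a pseudocount of 0.1 and 5.34 with 5. Leaving out each cell in turn gave 0 to 2 members higher by Cd34, 1 to 2 higher and 0 to 1 lower by Klf1. Leaving out cells 9 and 34 or single cells, and keeping only cells of title code Y, were chosen after seeing the data. Depth limits the sparse genes, as Id2 and Id3 had 0 reads after thinning to 85519 reads. No paired analysis was possible because there is 1 group. The cause of these shifts was not tested.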
